A study of Mus musculus with 2 samples.

Results

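Klk1b21 and Klk1b24 are 2 mouse glandular kallikrein genes, picked by symbol out of 31053 annotated features and out of 14 protein-coding genes of the Klk1 family. They were selected on measured values, namely a higher level in cells of untreated than of imiquimod-treated dermis, so that difference is given here as a description and nothing rests on it. Live CD45-negative, tdTomato-positive cells were sorted from the dermis of PdgfraDreER-tdTomato mice on a C57BL/6 background, 8 weeks old, and profiled by droplet single-cell RNA sequencing. One library came from untreated skin (UT) and the other from skin that had received imiquimod (IMQ), a Toll-like receptor agonist that provokes psoriasis-like inflammation, for 7 days. In both groups the reporter marks cells in which Pdgfra was active when tamoxifen was given, together with their progeny, so it labels the fibroblast lineage and not any one fibroblast type. How many animals went into each library is not given in the sources used here. With 1 library per group there was no replicate and no test was possible, and every interval below is at 95% and covers counting error only.

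Glandular kallikreins are secreted trypsin-like serine proteases encoded by a cluster of tandem duplicates. Klk1, the tissue kallikrein, cuts kininogen to release kinins, peptides that widen vessels and cause pain through the bradykinin receptors. Rodents carry many further copies, the Klk1b genes, which are best known from the submandibular gland, where androgens raise many of them, and from other androgen-responsive tissues. Several act on growth factors or matrix proteins rather than on kininogen.

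The annotation (GENCODE M21, GRCm38) put 14 coding family genes and 10 Klk1b pseudogenes in 286.957 kb of chromosome 7, between positions 43942662 and 44229618. Klk1b21 (ENSMUSG00000066516) lay on the plus strand at chr7:44102328-44106583 and Klk1b24 (ENSMUSG00000063713) on the same strand at chr7:44188236-44192455. Each had 5 exons and neither overlapped another annotated gene. The genes were 81652 bases apart, with 3 family members between them, of which 2 were coding. None of the 10 pseudogenes was in the feature list against which the reads had been counted.

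Because the library chemistry reads transcripts close to their 3′ ends, the ends of the coding sequence were compared. The last 60 coding bases before the stop codon, from the GENCODE M21 transcripts, are shown for the members and for the family genes seen with them, and capitals mark bases that differ from Klk1b21.
Klk1b21: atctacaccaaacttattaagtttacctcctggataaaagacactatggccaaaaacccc
Klk1b24: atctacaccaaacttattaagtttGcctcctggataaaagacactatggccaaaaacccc
Klk1b27: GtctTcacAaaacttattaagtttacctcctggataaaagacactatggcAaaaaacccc
Klk1b1: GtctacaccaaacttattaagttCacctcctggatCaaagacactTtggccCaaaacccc
Klk1: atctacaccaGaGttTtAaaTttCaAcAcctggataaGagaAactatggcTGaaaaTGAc
Klk1b24 differed from Klk1b21 at 1 of these 60 bases, Klk1b27 at 4, Klk1b1 at 5 and Klk1 at 15. The coordinates of the stretch were chr7:44106472-44106531 for Klk1b21 and chr7:44192344-44192403 for Klk1b24. Over the whole coding sequence, Klk1b21 was 92.6% identical to both Klk1b24 and Klk1b27, its joint closest relatives, and Klk1b24 was closest to Klk1b27, at 93.5%. The least similar coding gene for both was Klk1b4, at 84.6% and 83.6%.

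The promoters were identical over part of their length. The 250 bases before each RefSeq start site (GRCm38.p6, plus strand) are shown because the 2 genes were seen together, and capitals mark the longest run identical in both.
Klk1b21: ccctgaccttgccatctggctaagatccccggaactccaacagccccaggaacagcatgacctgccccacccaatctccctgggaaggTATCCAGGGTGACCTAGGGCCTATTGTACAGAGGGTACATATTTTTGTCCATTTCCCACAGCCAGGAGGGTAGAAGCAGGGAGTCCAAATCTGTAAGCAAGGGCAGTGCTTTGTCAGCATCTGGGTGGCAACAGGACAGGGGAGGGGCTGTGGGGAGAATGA
Klk1b24: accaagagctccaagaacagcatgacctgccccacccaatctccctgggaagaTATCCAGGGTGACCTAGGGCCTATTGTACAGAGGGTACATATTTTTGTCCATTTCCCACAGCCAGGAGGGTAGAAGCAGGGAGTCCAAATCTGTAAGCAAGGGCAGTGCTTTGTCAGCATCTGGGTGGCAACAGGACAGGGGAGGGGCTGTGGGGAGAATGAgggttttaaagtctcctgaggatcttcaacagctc
The Klk1b21 stretch was chr7:44102042-44102291 and the Klk1b24 stretch chr7:44187986-44188235. The shared run was 162 bases long and spanned positions -162 to -1 of Klk1b21 and -197 to -36 of Klk1b24, counted back from each start site. It was cut by the edge of the Klk1b21 window, which ended before the GENCODE start of that gene at 44102328. The Klk1b24 window ended next to its GENCODE start, so the 2 windows were not placed alike. Aligned end to end, the 2 windows matched at 210 of 285 columns, 73.7%. Columns in which only 1 window had a base counted as differences, so this value fell with the offset of the windows. It cannot be set against the identity of the coding sequences. By the same measure the highest value was with Klk1b27 for both, at 76.8% for Klk1b21 and 82.2% for Klk1b24. Those values also depend on how the windows were placed, so they do not show which promoter is closest. The longest run that either promoter shared with another of the family genes was 89 bases, in both cases with Klk1b27, while the runs shared with Klk1 were 20 bases. The letters TATAAA were in the promoter of 0 of the 14 family genes on either strand, against 12.4% of 32851 RefSeq promoters. That is a description of the letters in these windows and says nothing of a factor.

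In UT cells Klk1b21 was one of the most abundant kallikreins and Klk1b24 came after it, whereas in IMQ cells Klk1b21 was not seen and Klk1b24 was close to the limit of detection. Cells with 200 to 5000 genes and at most 5% mitochondrial UMIs (unique molecular identifiers, each standing for 1 captured transcript) numbered 1045 in UT and 571 in IMQ, with 1104798 and 460947 UMIs. Klk1b21 had 212 UMIs in UT and 0 in IMQ. This was 192 CPM (UMIs of the gene per 1000000 UMIs, interval 167 to 220) in UT, against at most 6.51 CPM in IMQ, the level of 3 UMIs that a count of 0 allows, so that Klk1b21 was at least 29.5-fold lower in IMQ. Klk1b24 had 113 UMIs in UT and 4 in IMQ, each of the 4 in a different cell. Its level was 102 CPM (84.3 to 123) in UT and 8.68 CPM (2.36 to 22.2) in IMQ, 11.8-fold lower, with a log2 ratio of -3.56 (-5.46 to -2.16).

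**Figure D1:**
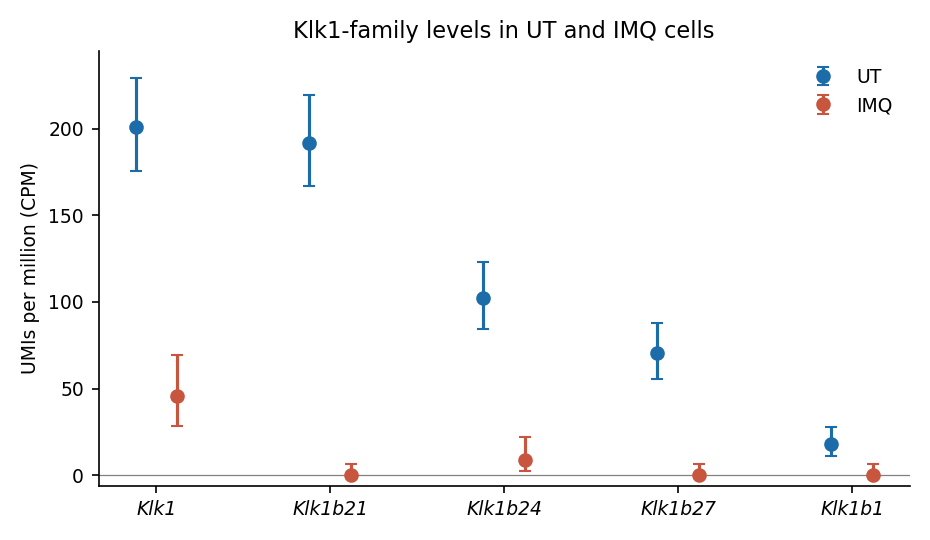
Level of each Klk1-family gene with more than 3 UMIs in UT, in CPM over the kept cells, in UT (blue) and IMQ (red), with exact Poisson 95% intervals or, for a count of 0, the level of 3 UMIs. Klk1b21 stood at 192 CPM in UT and at 0 in IMQ, and every gene shown was lower in IMQ than in UT.

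Libraries differed in more than these genes. Across the 8129 genes with at least 10 UMIs, the IMQ level lay at a median of -0.61 from UT on the log2 scale, and relative to it Klk1b21 was at most -4.27 and Klk1b24 -2.95. Of those 8129 genes, 9.1% were lower in IMQ by at least 4-fold, a share that included both members and, with them, Klk1b27 and Klk1. Among 1362 genes with at least 100 UMIs in UT, 11 had no UMI in IMQ, and Klk1b21 was one of them. Ranked by ratio, and with a 0 set to 3 UMIs, Klk1b21 was 14th and Klk1b24 25th from the lowest. Genes ranked lower included the keratinocyte markers Krt10 (1108 UMIs in UT, up to 545 in 1 cell) and Krt1 (321, all in 2 cells). Krt1 was also one of the 11 with no UMI in IMQ. The ranking is thus not one of fibroblast genes alone. The IMQ library was shallower (median 659 UMIs per cell against 741), kept 11.3% of its barcodes against 73.9% in UT, and had 14.6% of its UMIs on Gm42418, a transcript that overlaps ribosomal RNA, against 1.38% in UT. The part of these differences in the kallikrein values was not tested. The libraries had 1 barcode in common, and 0 among the kept cells.

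Other family genes with more than 3 UMIs were lower in IMQ too, under each scaling tried. Of the 14 coding genes, 6 had a UMI in UT, 2 had one in IMQ and 8 had none in either library. Klk1, the kinin-releasing enzyme, had 222 UMIs in UT and 21 in IMQ (201 and 45.6 CPM), a log2 ratio of -2.14 (-2.86 to -1.49). Klk1b27 had 78 UMIs in UT and 0 in IMQ, and was at least 10.8-fold lower. Klk1b1 had 20 against 0, at least 2.78-fold lower, and Klk1b9 had 3 UMIs, all in 1 UT cell. Klk1b21 and Klk1b24 together made up 325 of the 648 family UMIs of UT, or 50.2%.

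Per kilobase of transcript, the UT level was 220 CPM (192 to 252) for Klk1b21, 211 (184 to 240) for Klk1, 116 (96.0 to 140) for Klk1b24, 79.4 (62.8 to 99.1) for Klk1b27 and 20.9 (12.8 to 32.2) for Klk1b1. Klk1b21 and Klk1 were not distinguishable within counting error. The intervals of Klk1b24 and Klk1b27 also met, while Klk1b21 stood above Klk1b24 and Klk1b27 above Klk1b1. Since counts come from transcript ends, length is an imperfect scale here, and the 5 transcripts were of like length (867 to 954 bases).

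Most UT cells showed neither gene. Klk1b21 was seen in 102 of the 1045 UT cells, 9.76% (exact binomial interval 8.03 to 11.7), and Klk1b24 in 74, 7.08% (5.60 to 8.81). In IMQ the counts were 0 of 571 cells for Klk1b21, which allows a share of up to 0.525%, and 4 cells for Klk1b24, 0.701% (0.191 to 1.78). When every cell was thinned to 400 UMIs, with 73 shallower UT and 33 shallower IMQ cells left out, Klk1b21 was in 6.69% of UT cells (5.20 to 8.44) and in 0 of 538 IMQ cells, which allows up to 0.558%. Klk1b24 was then found in 3.70% (2.61 to 5.09) in UT against 0.743% (0.203 to 1.89) in IMQ.

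Positive cells held few molecules each. Of the 102 cells with Klk1b21, 54 had 1 UMI, 19 had 2 and 29 had 3 or more, up to 11 in 1 cell, with a mean of 2.08. Of the 74 cells with Klk1b24, 54 had 1 UMI, 12 had 2 and 8 had 3 or more, up to 9. The 10 cells with the most Klk1b21 carried 29.7% of its UMIs, and the corresponding figure for Klk1b24 was 34.5%. For Klk1 it was 51.4%, with 42 of its 222 UMIs in a single cell, the same one that held 11 Klk1b21 UMIs.

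Klk1b21 and Klk1b24 were often in the same cells. Both were found in 28 UT cells, Klk1b21 without Klk1b24 in 74, Klk1b24 without Klk1b21 in 46 and neither in 897. Klk1b24 was thus seen in 27.5% of cells with Klk1b21 (19.1 to 37.2) and in 4.88% of cells without it (3.59 to 6.45). Deep cells show more of any gene, and cells with either member had a median of 918.5 UMIs against 711 in the rest. After thinning to 400 UMIs the shares were 13.8% (6.53 to 24.7) and 2.98% (1.97 to 4.30). With the cells divided into 3 depth classes of like size, the shares were 15.8% and 4.88% in the shallowest, 31.4% and 3.82% in the middle and 29.2% and 5.98% in the deepest class. The first of each pair was the higher in all 3 classes, although in the shallowest the intervals met (3.38 to 39.6 against 2.81 to 7.80), with 3 cells holding both.

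**Figure D2:**
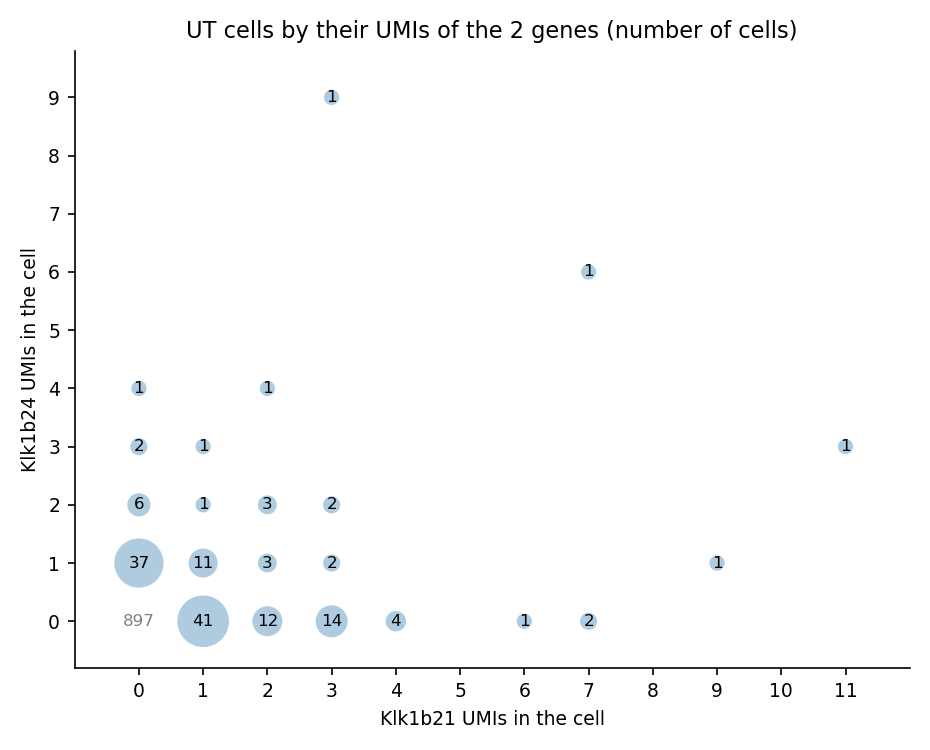
UT cells by the number of Klk1b21 UMIs (horizontal axis) and of Klk1b24 UMIs (vertical axis) that they held, where the number printed and the area of the disc give the count of cells. The 897 cells with neither are printed in grey without a disc, and cells rich in one gene appear both with and without the other.

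As counted, the ratio of the 2 genes varied from cell to cell. Whether it varied by more than the sampling of so few UMIs per cell gives was not tested. Over UT there were 1.88 Klk1b21 UMIs for each Klk1b24 UMI. Of 29 cells with at least 3 Klk1b21 UMIs, 21 had no Klk1b24 UMI, among them 2 cells with 7. In the other direction, 3 of the 8 cells with at least 3 Klk1b24 UMIs had no Klk1b21. In the 28 cells with both, Klk1b21 was the higher in 10, Klk1b24 in 4, and they were equal in 14. The cell with the most Klk1b24, 9 UMIs, had 3 of Klk1b21, and the cell with the most Klk1b21, 11 UMIs, had 3 of Klk1b24.

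Other family genes accompanied the pair. Klk1b27 was in 22.5% of cells with Klk1b21 (14.9 to 31.9) and 2.86% of those without (1.90 to 4.14), and in 23.0% of cells with Klk1b24 against 3.40%. Klk1 was in 25.5% of cells with Klk1b21 (17.4 to 35.1) and 5.41% of those without (4.05 to 7.05), and in 24.3% of cells with Klk1b24 against 6.08%. Klk1b1 was in 5.88% and 1.17%, and in 8.11% and 1.13%. All of these shares pair genes that resemble each other in sequence, so how far reads could be confused bears on them.

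For this, each window of 91 bases in the last 500 bases of a transcript was searched in every other transcript of the annotation. The read length is not given in the sources used here, and 91 bases is the length usually read with this chemistry. Of 410 windows, 10.2% of those of Klk1b21 and 8.54% of those of Klk1b24 occurred letter for letter in another family transcript, and 0 occurred outside the family. There were 35 windows common to both members, and Klk1b21 shared 23 with Klk1b27, Klk1b24 16, counted separately for each partner. Neither member shared an exact window with Klk1 or Klk1b1. The exact windows lay in 2 places, those of Klk1b21 ending 336 to 369 and 172 to 179 bases from the 3′ end and those of Klk1b24 ending 336 to 362 and 172 to 179. Cell Ranger counts reads that map to a single gene, so a read from these places would be dropped and not split between genes.

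**Figure D3:**
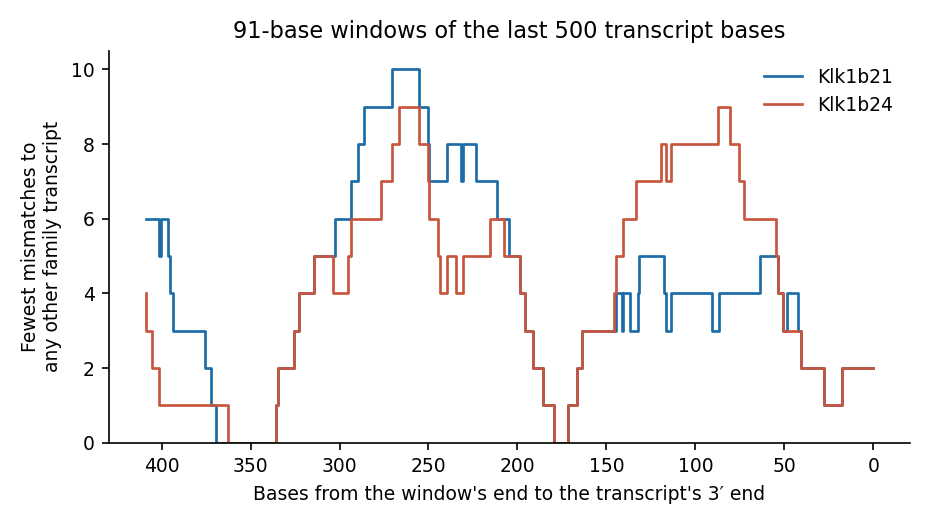
Fewest mismatches between each 91-base window and any other family transcript, against the distance in bases from the end of the window to the 3′ end of the transcript, for Klk1b21 (blue) and Klk1b24 (red). Both touched 0 in 2 places, reached 10 and 9 mismatches in between, and stood at 2 at the very end.

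Windows that a few sequencing errors could move were more common. With at most 2 mismatches allowed, 29.0% of Klk1b21 windows and 36.3% of Klk1b24 windows had a counterpart in the family, and the median window differed from its nearest counterpart by 4 bases in both genes. The nearest counterpart was the other member for 45.1% of Klk1b21 windows and 55.4% of Klk1b24 windows. The assignment of single molecules among the members and Klk1b27 is therefore uncertain. The 8 other coding copies, Klk1b22, Klk1b26 and Klk1b3 among them, had 0 UMIs in both libraries, and in IMQ, where Klk1 had 21 UMIs, Klk1b21 had 0. How many UMIs were misassigned cannot be read from counts.

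The kallikreins were in cells that carried fibroblast transcripts. When UT cells were divided into 4 groups of like size by the share of their UMIs on 7 fibroblast genes (Col1a1, Col1a2, Col3a1, Dcn, Lum, Pdgfra and Pdpn), a UMI of either member was in 2.30% of cells of the lowest group (0.848 to 4.94), 11.5% of the next (7.89 to 16.0), 21.5% of the third (16.6 to 26.9) and 21.4% of the highest (16.6 to 26.8). The summed level was 29.2, 225, 412 and 501 CPM. Median depth ran over the groups from 593 to 1000.5 UMIs, and thinned to 400 UMIs the shares were 1.72%, 8.68%, 14.6% and 12.3%. The lowest group was below each of the others, and the top 2 were not distinguishable. Single genes of the list were divided. In UT cells with either member, Col1a1, Col1a2, Col3a1, Dcn and Lum were higher than in the other UT cells. Pdgfra was lower there, with 2 UMIs against 47 (log2 ratio -2.07, -5.15 to -0.132). Pdpn was at 95.8 against 106 CPM, and the interval of its ratio included no difference.

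**Figure D4:**
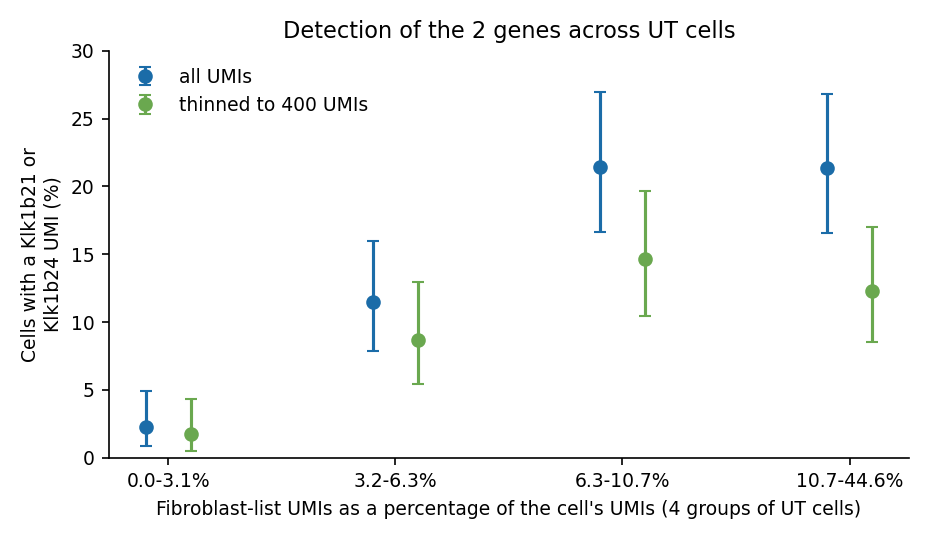
Percentage of UT cells with a UMI of Klk1b21 or Klk1b24 in 4 groups of cells ordered by the percentage of their UMIs on the 7 fibroblast genes, with all UMIs (blue) and after thinning each cell to 400 UMIs (green), with exact binomial 95% intervals. The share was 2.30% in the lowest group and 21.4% in the highest.

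Cells of other types lacked the members as far as their number can show. Of 1458 UMIs of 6 keratinocyte markers in UT, 94.7% were in 2 cells, and these 2 cells had 0 member UMIs among 48081, which allows up to 62.4 CPM against 294 CPM in UT as a whole. The 5 UT cells with at least 5 UMIs of the class II genes Cd74, H2-Aa, H2-Ab1 and H2-Eb1, which mark antigen-presenting cells, had none either, at a median of 651 UMIs against 741.5 in the other cells, but 0 of 5 cells sets no useful limit. In cells with either member, the myeloid list was at 18.0 CPM and the keratinocyte list at 89.8 CPM, against 1832 and 1539 CPM in the others, but 97.2% of the myeloid UMIs lay in 5 cells and most keratinocyte UMIs in the 2 just named. Without those cells the others were at 48.4 CPM for the myeloid list and 70.8 CPM for the keratinocyte list, so outside these few cells the keratinocyte list was no lower in positive cells. Of the glands in which these genes are best known, the 5 Leydig cell markers had 0 UMIs in both libraries. The salivary list was at 204 CPM in positive cells and 126 CPM in others, nearly all of it Amy1, an amylase gene (204 against 124 CPM, log2 ratio 0.72, 0.12 to 1.28), while Smgc, Egf and Dcpp1 had no UMI. The sebocyte and gland list was at 832 against 575 CPM through Mgst1 (724 against 466), a detoxifying enzyme gene not restricted to glands, and Scd1 (108 against 101), and its other 6 genes had no UMI in positive cells. The endothelial and dermal papilla lists had 0 UMIs in positive cells, which allows up to 18.0 CPM, against 42.7 and 124 CPM in others. The pericyte list was at 83.8 and 55.5 CPM in positive and other cells, the T cell list at 5.99 and 4.27, the melanocyte list at 18.0 and 21.3 and the adipocyte list at 102 and 118, and the interval of each of these 4 ratios included no difference. The Schwann cell list, with 4 UMIs in all, was too sparse to compare. The part of these other transcripts in the kallikrein values was not tested.

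In both libraries, cells in which the fibroblast genes took at least 6.30% of UMIs, the UT median, gave a like picture. There were 523 such cells in UT and 423 in IMQ, and Klk1b21 was in 15.1% (12.1 to 18.5) of the former and 0 of the latter. Klk1b24 was in 10.7% (8.19 to 13.7) and 0.946% (0.258 to 2.40). The log2 ratios were at most -5.13 for Klk1b21 and -3.69 (-5.60 to -2.29) for Klk1b24. This division was made after the data had been seen, and the fibroblast list itself was higher in IMQ (121793 CPM) than in UT (80870 CPM).

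Fibroblast subtypes did not separate the positive cells clearly. The 148 UT cells with either member were compared with the 897 others by summed counts. The reticular list was higher in positive cells (5436 against 3478 CPM), where nearly all its UMIs were of Gpx3, a secreted glutathione peroxidase, and Clec3b, tetranectin. Of its 6 genes 3 were at 0 there, Mgp, Plac8 and Dlk1, which had only 16, 3 and 1 UMIs in the others. Mfap5 was at 83.8 against 135 CPM, and the interval of its ratio included no difference. The papillary list was lower (419 against 783 CPM), led by the retinoid-binding Crabp1 (216 against 520 CPM). Crabp1 was nevertheless in a like share of cells of both kinds (14.9% and 15.4%). Other papillary genes were divided. Dpp4 was at 41.9 against 85.3 CPM, with an interval of its ratio that included no difference, and Lef1 and Wif1 had no UMI in positive cells. Ntn1 (95.8 against 81.0), Axin2 (35.9 against 14.9) and Apcdd1 (29.9 against 18.1) were higher, on few UMIs, and the interval of each ratio included no difference. The fascial list was at 2233 and 1979 CPM, with Cd55 (198 and 120) and Ly6c1 (1353 and 995) higher in positive cells and Pi16 (479 and 692) lower. For Anxa3 (144 and 129) and Sema3c (59.9 and 42.7) the interval of the ratio included no difference. Des, a muscle intermediate filament gene, had 210 and 84.2 CPM. The smooth muscle genes Acta2 and Tagln had no UMI in positive cells and 5 and 7 in the others, too few to compare.

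Across the 1045 UT cells, the genes whose levels went most closely with the summed members, after the other kallikreins, were Pcolce2, Col1a1 and Col1a2. Likeness was the Pearson correlation of log counts per 10000 over cells, which share a library and differ in depth, and 4358 genes with a UMI in at least 20 cells were ranked. The coefficient was 0.28 for Klk1b27 and 0.26 for Klk1, which were left out of the ranking, and 0.26 between the members themselves. The highest ranked gene had 0.19, the median gene 0.00126 and the lowest -0.10, so none of the ranked genes went closely with the kallikreins, and values this weak in sparse counts are no finding. They are given to describe the cells.

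The 15 highest are given here with what each is known to do. Pcolce2, which speeds the removal of the procollagen C-propeptide, came first with a coefficient of 0.19 and was seen in 48.3% of positive and 33.9% of other cells after thinning. Col1a1 and Col1a2, the chains of type I collagen, followed with 0.18 each, and Col3a1, the chain of type III collagen, had 0.17. Adamts2, the procollagen N-proteinase, had 0.16 and was in 58.7% against 35.7% of cells. Rcn3, a calcium-binding protein of the endoplasmic reticulum, closed the 15 with 0.13.

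Aebp1, which binds collagen, had 0.18, with 7130 CPM in positive and 4645 CPM in other cells. Serpinf1, which encodes the anti-angiogenic serpin PEDF, had 0.17 and was in 67.1% against 39.8% of thinned cells. Tgfbi, a matrix adhesion protein, and Dcn, the proteoglycan decorin, had 0.17 each, Rarres2, the chemokine-like chemerin, 0.16, and Gsn, the actin-severing gelsolin, and Ctsk, the collagen-degrading cathepsin K, 0.15 each. Agt, the precursor of angiotensin, had 0.15 on 25 UMIs, 14 of them in positive cells. Wdr83os, a membrane chaperone subunit, had 0.15 on 107 UMIs.

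**Figure D5:**
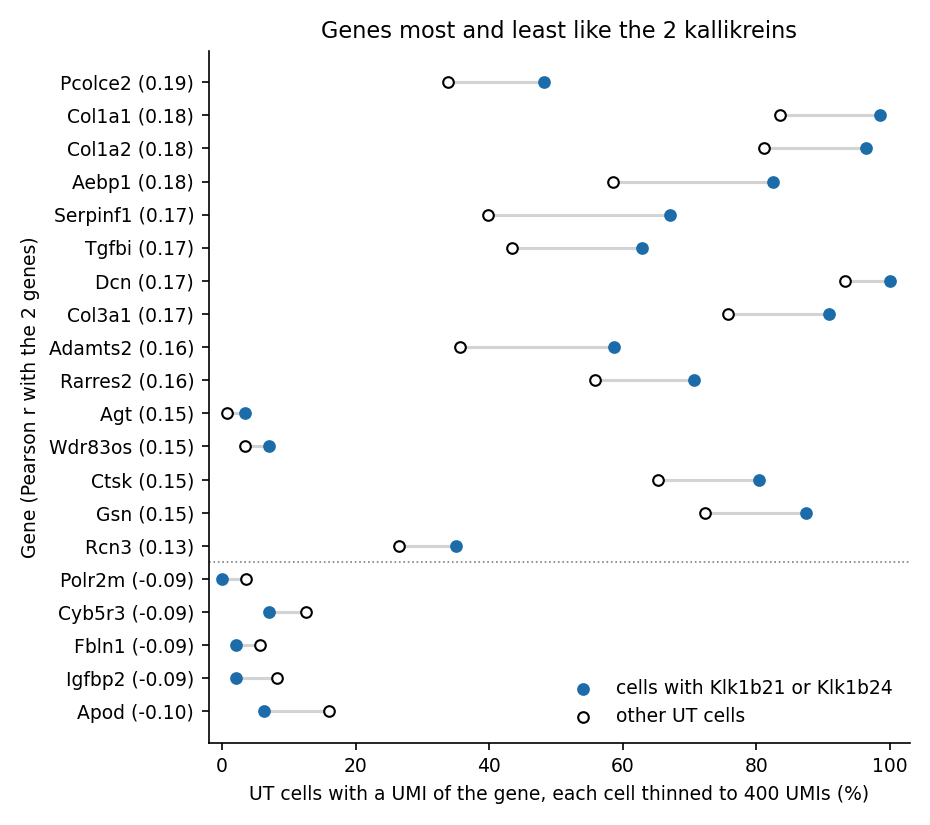
Percentage of UT cells with a UMI of each gene after thinning to 400 UMIs, in cells with Klk1b21 or Klk1b24 (filled) and in the other cells (open), for the 15 genes with the highest and the 5 with the lowest correlation, given in brackets. Shares were higher in positive cells for the genes above the dotted line and lower for those under it.

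At the other end of the ranking stood Apod, Igfbp2, Fbln1, Cyb5r3 and Polr2m. Apod, a lipid carrier, had -0.10 and was at 233 CPM in positive against 834 CPM in other cells. Igfbp2, which binds insulin-like growth factors, had -0.09 and was in 2.03% against 10.8% of cells. Fbln1, the matrix protein fibulin-1, and Cyb5r3, a reductase of cytochrome b5, had -0.09 each, as did Polr2m.

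Among the fibroblast-rich UT cells alone, the ranking was another. Of the 15 genes, 1 stayed among the 15 highest there, Wdr83os at 0.22, and the coefficients of Col1a1 (-0.05), Col1a2 (-0.05) and Col3a1 (-0.01) were about 0; these 3 are also on the list that divided the cells. Klk1b24 was still found in 29.1% (19.4 to 40.4) of those cells that had Klk1b21, and in 7.43% (5.17 to 10.3) of those that did not. With the members taken singly over all UT cells, 13 of the 15 genes were among the 15 highest for Klk1b21 alone and 8 for Klk1b24 alone.

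By the size of the ratio between positive and other UT cells, rare transcripts led. Of 4960 genes with at least 20 UMIs, 3.45% were higher in positive cells by at least 2-fold. With 10 CPM added, Meg3, a long non-coding RNA, came first (497 against 83.2 CPM), but 81 of its 83 UMIs in positive cells were in 1 cell. Agt was next, with 83.8 against 11.7 CPM in 10 of the positive cells, and Ms4a4d, a membrane protein gene, had 168 against 41.6 CPM. The other 7, Glyr1, Mrps23, Dip2c, Ankra2, Grhpr, Rfk and Arsa, had 9 to 14 UMIs in positive cells, too few to rank among themselves.

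Little of the pathway in which tissue kallikrein works was seen in these cells. Of 12 genes of kinin formation, action and breakdown, 4 had at least 10 UMIs over both libraries, and 0 of the 4 were lower in IMQ by 4-fold, where 9.1% of all genes were, too few genes to read against it. Their median log2 ratio was 0.03, beside -0.61 over all genes. They were Serping1, the C1 inhibitor that also blocks plasma kallikrein (1796 CPM in UT, 1300 in IMQ), Ace, which degrades bradykinin (92.3 and 137 CPM), and at low level the peptidases Mme (29.0 and 21.7 CPM) and Prcp (10.9 and 15.2 CPM). The kininogens and the bradykinin receptors were among the 8 with fewer. Serping1 was at 2269 CPM in positive and 1712 CPM in other UT cells, and 0 of the 3 genes of this list with 20 UMIs were 2-fold higher in positive cells.

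Protease inhibitors on the list were mostly low. Of 12, 5 had 10 UMIs, and 1 of these, Spink5, an epidermal inhibitor of kallikreins, was lower in IMQ by 4-fold (61 UMIs against 0). Its UMIs were in 2 UT cells, 36 of them in 1. These were 0.223% of the UT cells without the members, and no cell with the members had one. Serpina3n (191 and 278 CPM in UT and IMQ), Serpina3c (45.3 and 80.3) and Serpine2 (41.6 and 30.4), all secreted serpins, were seen in both libraries, and Spint2, a Kunitz-type inhibitor, had 12 UMIs in UT and 0 in IMQ. Of 8 proteins reported as substrates of glandular kallikreins or like proteases, 6 had 10 UMIs, with a median log2 ratio of -0.07, and 0 of the 6 were lower by 4-fold, again beside 9.1% of all genes. Igf1, a growth factor, was the lowest (320 against 104 CPM), and Fn1, fibronectin, was at 108 and 182 CPM. Igfbp3, which carries insulin-like growth factors and can be cut by kallikreins, was at 29.9 CPM in positive UT cells and 984 CPM in others. Its 928 UMIs were in 47 cells, 641 of them in 10 cells and 109 in 1, and it was seen in 2.70% of positive and 4.79% of other cells. Of the list, 3 of the 6 were 2-fold lower in positive cells (Igfbp3, Col4a1 and Lama2), beside 15.5% of all genes. Col4a2, like Col4a1 a basement membrane collagen chain, was at 47.9 and 73.6 CPM.

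Genes of steroid conversion and response were seen at low level. Hsd17b11 (81.5 CPM in UT and 117 in IMQ) and Hsd11b1 (26.2 and 54.2 CPM), which convert steroids, and Fkbp5, a hormone-induced chaperone gene (26.2 and 28.2 CPM), were not lower in IMQ. Srd5a1 and Srd5a3, which act in steroid reduction, had 11 and 20 UMIs in UT and 2 and 7 in IMQ. In UT cells with either member, Hsd17b11 was at 77.8 CPM, against 82.1 CPM in the others, and Srd5a3 at 35.9 against 14.9 CPM (6 and 14 UMIs). Fkbp5 and Hsd11b1 were both at 5.99 against 29.9 CPM (1 and 28 UMIs).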

How the data were processed

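The authors sequenced 1 UT and 1 IMQ library (Chromium 3′ kit, version 3) and deposited Cell Ranger matrices of raw UMI counts, not normalised; per the file headers the versions were 3.0.0 (UT) and 3.1.0 (IMQ). The submitters' processing notes name mm10 and CASAVA; the annotation, read length and use of strand are not given in the sources used here. The matrices held 1415 UT and 5047 IMQ barcodes (1524079 and 2358303 UMIs), and the IMQ matrix has fewer barcodes than the filtered IMQ cells the study counted.

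Barcodes with 200 to 5000 genes and at most 5% mitochondrial UMIs were kept. The sort was gated against doublets, and the study also removed doublets predicted with DoubletFinder, a step not repeated here. Removal by Scrublet score (scanpy 1.11.5) was an alternative. CPM were computed over the kept cells, with exact Poisson, exact (Clopper-Pearson) binomial and conditional binomial intervals (scipy 1.17.1). PCR duplicates are collapsed by UMIs. A 0 was read as at most 3 UMIs in that library. Cells were thinned without replacement to 400 UMIs. TMM (edgeR 4.0.16) and median-of-ratios (DESeq2 1.42.0) factors were used as alternative scalings only. Sequences came from GENCODE M21 and RefSeq promoters, aligned with Biopython 1.88. The log2 ratio with its interval and the correlation ranking were tested on simulated data, and the thinning was checked on UT cells. The other statistics were not tested in this way.

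The members and gene lists were chosen with earlier results of these data known. Named are the members, family genes with a UMI, the 15 highest and 5 lowest correlations without mitochondrial, ribosomal and Klk1-family genes, the 10 highest positive-over-other ratios with at least 20 UMIs, and list genes with at least 10 UMIs in either library. Of the list of steroid and hormone response genes, 1 gene is not reported here.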

Additional observations from a re-analysis of the deposited data

How the results depend on the processing

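With 1 library per group, no library could be left out, and no paired analysis was possible because the labels give no pairing between the groups. Of 71 recomputed values 43 stayed within the interval of the value reported or within 1.5 times a count, and 28 moved. A change of direction was looked for only in the log2 ratios of the 2 members, and 0 of these changed direction. The correlations of Col1a1, Col1a2 and Col3a1, which are not among these ratios, changed sign in fibroblast-rich cells. The bound on the log2 ratio of Klk1b21 was -4.88, and became -4.40 with TMM, -4.41 with median-of-ratios factors, -4.62 with mitochondrial, Rpl, Rps, AY036118 and Gm42418 UMIs taken out, -2.33 with at least 500 genes per cell and -5.13 in fibroblast-rich cells. With 1 IMQ UMI it was -7.27 (-12.6 to -4.78) at 10% mitochondrial UMIs and -8.55 (-13.9 to -6.06) over all deposited barcodes. The Klk1b24 ratio stayed within its interval, from -4.58 to -2.60, the latter with at least 500 genes and an interval of -7.93 to -0.0456. The share of UT cells with Klk1b21 was 14.2% with at least 500 genes, 15.1% in fibroblast-rich cells and 6.69% after thinning. For Klk1b24 it was 10.7% in fibroblast-rich cells and 3.70% after thinning. In IMQ it was 2.70% with at least 500 genes, with a wide interval (0.0684 to 14.2), and 0.159% over all barcodes. Klk1b24 was in 13.8% of thinned cells with and 2.98% without Klk1b21, and in 7.43% of fibroblast-rich cells without it. Of the 15 genes with the highest correlations, 7 stayed with at least 500 genes, 8 after thinning, 8 with Klk1b24 alone and 1 in fibroblast-rich cells. Of the 10 genes with the highest ratios, 6 stayed with a minimum of 10 UMIs. Windows found exactly elsewhere were 35.7% (Klk1b21) and 31.5% (Klk1b24) at 50 bases, 0% for both at 150 bases, and 6.79% and 5.96% over whole transcripts. Fewer cells entered at 500 genes and fewer UMIs after thinning, and the cause of the other shifts was not tested. The fibroblast-rich division was added after seeing the data. Scrublet removed 12 UT cells, 2 of them with a member UMI, and 23 IMQ cells, 0 with one.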

Other observations

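Barcodes that the filters left out held some of both genes. The 370 UT barcodes left out had 30 Klk1b21 UMIs (71.6 CPM, 48.3 to 102) and 11 Klk1b24 UMIs (26.2 CPM, 13.1 to 46.9), all of them in barcodes with over 5% mitochondrial UMIs. The 4476 IMQ barcodes left out had 1 Klk1b21 UMI (0.527 CPM, 0.0133 to 2.94) and 4 Klk1b24 UMIs (2.11 CPM, 0.574 to 5.40), with Klk1 at 42 UMIs (22.1 CPM, 16.0 to 29.9). Over all 5047 IMQ barcodes Klk1b24 had 8 UMIs in 8 barcodes.

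Of the 12 other tissue kallikreins, which are known mostly from epidermis and glands, 3 had a UMI in kept UT cells. Klk5 had 8 UMIs in 2 cells, Klk8 4 in 2 cells and Klk11 3 in 1 cell, and none of these UMIs was in a cell with Klk1b21 or Klk1b24. All 12 had 0 UMIs in the IMQ library, over all barcodes. Krt77 (728 UMIs in UT, 0 in IMQ) and Krt10 (1108 and 5), genes of differentiating keratinocytes, had the lowest ratios of the genes with at least 100 UMIs in UT. Of the Krt10 UMIs of UT, 545 were in 1 cell, so its ratio rests on few cells.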
